A study of Mus musculus with 12 samples.

Results

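Hox genes encode homeodomain transcription factors and lie in the HoxA, HoxB, HoxC and HoxD clusters. The members described here are the 33 genes of the deposited array table whose symbol is Hox, a cluster letter and a number, out of 18193 genes with a named probe set. Each member was represented by the probe set with the highest mean log2 intensity over the 12 arrays. Hox genes without a probe set annotated to them alone were left out of the array results. In all, 48 probe sets carried a single Hox symbol, and 11 members had several.

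The arrays profile a mouse disease driven by ZMYM2-FGFR1, a fusion of the zinc finger protein ZMYM2 with the receptor tyrosine kinase FGFR1. Double-positive (DP) thymocytes (n = 3) were Thy1+ CD4+ CD8+ cells sorted from normal Balb/c thymus, each array pooling 3 mice. T lymphoma (n = 4) came from ZMYM2-FGFR1 mice after the third serial transplantation. Lymphoma 1 to 3 were unsorted, with over 90% GFP+ Thy1+ DP cells per the labels, and lymphoma 4 was sorted for such cells. Haematopoietic stem cells (HSC, n = 2) came from the marrow of normal Balb/c mice, 5 females per sort, and were selected as Lin- Sca-1+ c-kit+. Leukaemic stem cells (LSC, n = 2) had that phenotype, carried GFP and were taken from marrow or spleen, using 2 to 3 leukaemic mice. The remaining array held ZNF112, an unsorted cell line (n = 1). The strain of the lymphoma, LSC and ZNF112 samples, the ages and the promoter driving the fusion are not given in the sources used here.

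Hox genes are named by cluster and by position, and position within a cluster follows the order of expression along the body axis. In blood formation, genes of the HoxA and HoxB clusters are active in stem and progenitor cells and are switched down as cells mature. Hoxa9 acts with the homeodomain cofactor Meis1 and is a known driver of leukaemia, Hoxb4 promotes stem cell renewal, and Hoxa10 and Hoxa5 influence progenitor fate.

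The median intensity was 99.5 to 109.3 on the 8 arrays of DP thymocytes, lymphoma and ZNF112, and 44.28 to 46.15 on the 4 HSC and LSC arrays. The array sets therefore looked normalized apart. Levels below are log2 intensities minus the log2 median of all probe sets on the same array, and every contrast between groups was taken within 1 array set. All 12 T cell markers were above the array median on every DP and lymphoma array and 11 of 12 in ZNF112, and the 8 stem cell markers with a probe set were all above it in both HSC arrays. LSC 2 stood apart from LSC 1: only 4 of the 8 stem cell markers were above the median there, against 7 in LSC 1. Over all genes tested LSC 2 correlated at 0.863 to 0.893 with the lymphoma arrays, at 0.777 and 0.788 with HSC and at 0.784 with LSC 1.

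Most Hox genes were low in all 5 groups. A member was counted as present in a group when it exceeded the array median on every array of that group. By this rule 6 of 33 members were above the median in DP thymocytes, 5 in T lymphoma and 7 each in ZNF112, HSC and LSC. The rule is stricter for a group of more arrays, from 1 array in ZNF112 to 4 in T lymphoma, which limits comparison of the counts. The counts depend on the cut and on the probe set used, and other choices gave as few as 3 for DP thymocytes, 1 for T lymphoma, 2 for HSC and 4 for LSC. With the array median and 1 probe set per gene they are 18.2%, 15.2%, 21.2%, 21.2% and 21.2% of the members, while 52.9% to 58.9% of all 18193 genes met the rule in the same groups. On their representing probe sets, Hoxa5, Hoxa7, Hoxa9, Hoxb4 and Hoxd9 were above the median on all 12 arrays. Hoxc6 joined them in every group except T lymphoma, where lymphoma 1 was at the median, and Hoxc9 joined them in ZNF112, HSC and LSC. Hoxa5, Hoxa9 and Hoxb4 each had another probe set that was below the median on every DP, lymphoma and ZNF112 array. Whether these genes are expressed there thus depends on the probe set.

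**Figure D1:**
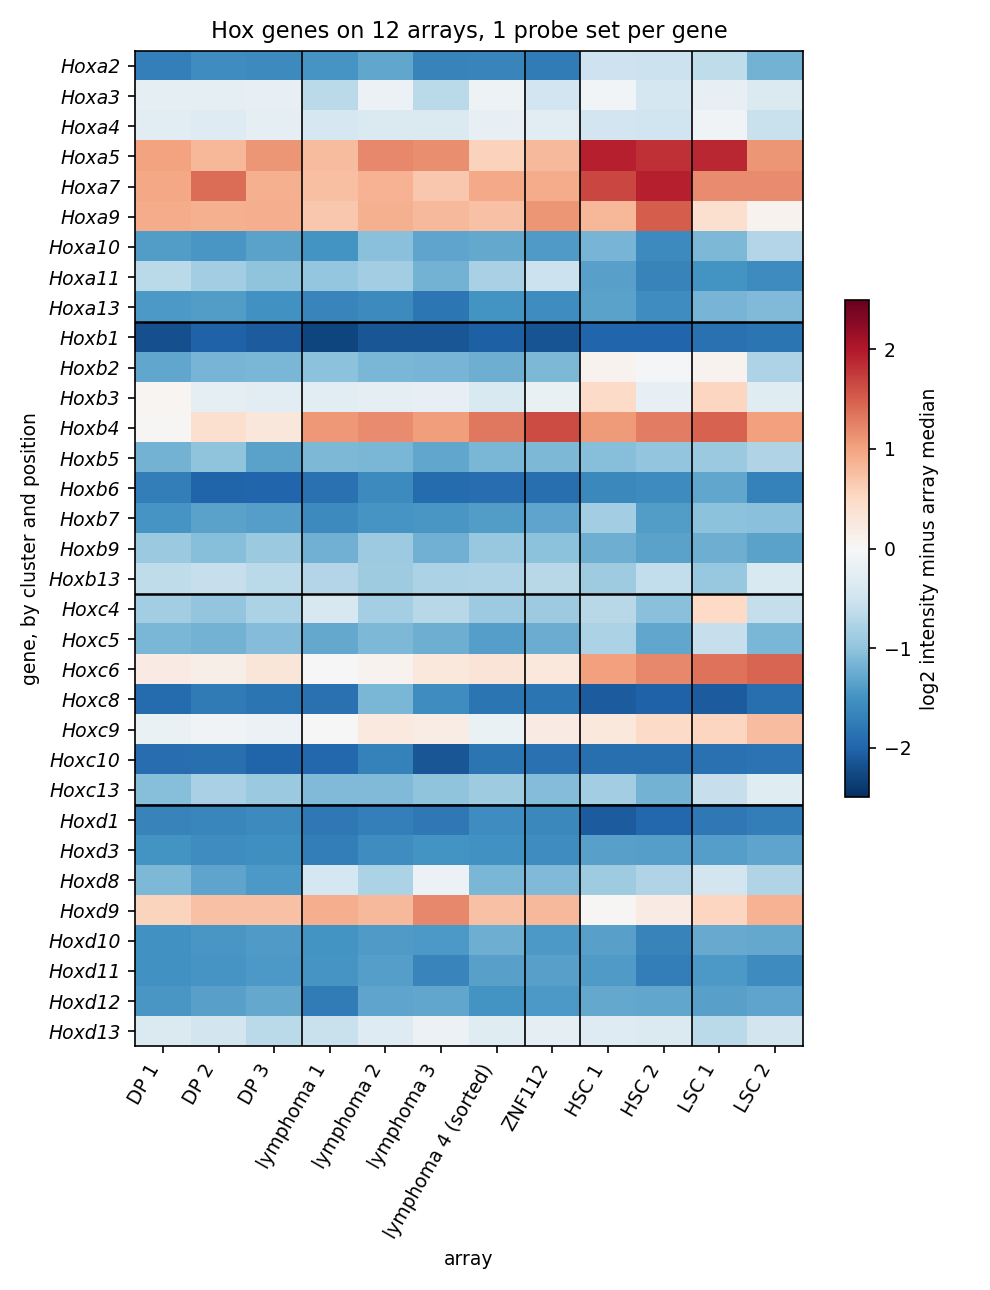
Each row is 1 of 33 Hox genes ordered by cluster and position, each column 1 array, and colour gives log2 intensity minus the median of that array; thin lines divide groups and thick lines divide clusters. The rows for Hoxa5, Hoxa7, Hoxa9, Hoxb4 and Hoxd9 are red on all 12 arrays, while 23 rows are below the median throughout.

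By cluster, 3 of 9 HoxA members, 1 of 9 HoxB members and 1 of 8 HoxD members were above the median in each of the 5 groups. HoxC had 7 members, of which 1 was above the median in DP thymocytes, 0 in T lymphoma and 2 in the other groups. On their representing probe sets, another 23 members were below the median on all 12 arrays, between -2.29 and -0.06 with a median of -1.32. They included most genes of the 5' ends of the clusters, which pattern the posterior body and limbs: Hoxa10, Hoxa11, Hoxa13, Hoxb13, Hoxc10, Hoxc13 and Hoxd10 to Hoxd13. Of the 23, Hoxa3 and Hoxa10 each had another probe set above the median on both HSC arrays. Hoxb1, a hindbrain gene, ranged from -2.29 to -1.83. Hoxd13, a limb gene, ranged from -0.67 to -0.15. Hoxc4 exceeded the median only in LSC 1, at 0.50, and Hoxb2 and Hoxb3 exceeded it on some arrays but not on all arrays of any group.

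The rule has members close to its threshold in most groups. In DP thymocytes the lowest array value of Hoxb4 was 0.03, while Hoxc9, just outside, had a lowest value of -0.16. In HSC the lowest value of Hoxd9 was 0.03 and that of Hoxb2 was -0.04. In LSC these values were 0.09 for Hoxa9 and -0.31 for Hoxb3. T lymphoma had a wider gap above the threshold, with 0.57 for Hoxa5, and Hoxc6 lay just under it at -0.0009. In ZNF112, Hoxc9 was at 0.20 and Hoxb3 at -0.18.

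HSC and LSC were compared to show which stem cell genes differ once cells of that surface phenotype carry the fusion. Probe sets of the HoxA genes Hoxa9, Hoxa5 and Hoxa10 were lower in LSC, as was the antisense transcript Hoxb5os of the HoxB cluster, while no member was called higher. The test was limma's moderated test on log2 intensity with Benjamini-Hochberg adjustment over all features tested, and an adjusted p under 0.05 counted as a call. Differences are of log2 intensities, not of levels over the array median. Of the 9 members that passed the filter on low values, 1 was called lower (Hoxa9) and 0 higher, against 6.52% of the 12496 genes tested called lower and 4.12% called higher. When every probe set was tested with no filter, 4 of the 48 Hox probe sets, belonging to Hoxa5, Hoxa9 and Hoxa10, were called lower, against 3.85% of 34945 probe sets, and 0 higher, against 3.09%. The other values for single probe sets below come from the fit of the 22482 above their array median on at least 2 arrays. Hoxa5 1448926_at and Hoxa10 1431475_a_at passed that filter only through the HSC arrays, where they were high. The antisense transcript Hoxb5os passed through HSC and LSC 1. Their values without the filter are therefore given as well. In samples of many cells, fewer expressing cells and less RNA per cell cannot be told apart.

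Hoxa9 had probe sets that differed widely in response. Probe set 1455626_at lay at 6.09 and 6.86 in HSC 1 and 2, and at 3.72 and 0.11 in LSC 1 and 2. It lay at -1.64, -1.58 and -1.65 in DP thymocytes, at -1.84, -0.05, -1.14 and -1.69 in lymphoma 1 to 4, and at -1.62 in ZNF112. Both HSC arrays thus stood at the 98.2 and 98.7 percentile of their arrays and above both LSC arrays, which lay far apart, while the lymphoma, DP and ZNF112 arrays were all below their medians. The log2 difference LSC minus HSC was -4.60 ± 0.97 (SE, limma adjusted p = 0.0190), a 24.2-fold lower mean. It was -2.81 without LSC 2 and -6.39 without LSC 1, both called, and without HSC 1 or HSC 2 the limma adjusted p was 0.0511 and 0.0961.

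The probe set that represented Hoxa9 by the highest-mean rule, 1421579_at, varied far less. It lay at 0.83 and 1.51 in HSC, 0.40 and 0.09 in LSC, 0.93, 0.88 and 0.90 in DP thymocytes, 0.67, 0.89, 0.81 and 0.72 in lymphoma 1 to 4, and 1.10 in ZNF112. HSC was again above LSC without overlap, and all 12 arrays were above their medians. The difference LSC minus HSC was -0.96 ± 0.24 (SE, limma adjusted p = 0.0369). It was not called without HSC 2 (-0.64, limma adjusted p = 0.152) or without LSC 2 (-0.82, limma adjusted p = 0.0711).

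Hoxa5, which lies further towards the 3' end of HoxA, showed the same kind of split between its probe sets. Probe set 1448926_at lay at 1.48 and 1.96 in HSC and at -0.82 and -0.40 in LSC, with DP thymocytes at -0.24, -0.06 and -0.26. Lymphoma 1 to 4 lay at -0.02, -0.42, -0.39 and -0.39 and ZNF112 at -0.30. Only the HSC arrays were above the median. The difference LSC minus HSC was -2.36 ± 0.26 (SE, limma adjusted p = 0.00122), a 5.13-fold lower mean, and limma adjusted p = 9.34e-04 with no filter. Leaving out 1 of the 4 HSC and LSC arrays leaves a group of 1, whose spread is then borrowed from the other groups. Over the other settings described at the end, the difference ranged from -2.58 to -1.57. The call was lost with array weights and with only the contrasted arrays (limma adjusted p = 0.242). The representing probe set 1443803_x_at lay at 1.94 and 1.82 in HSC and 1.89 and 1.10 in LSC, which overlap, and its difference was -0.41 ± 0.32 with a 95% interval of -1.14 to 0.31 (limma adjusted p = 0.460).

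Hoxa10 was represented by a probe set below the median on every array, 1446408_at, which was not tested. Its probe set 1431475_a_at lay at 0.12 and 0.88 in HSC and at -1.24 and -0.95 in LSC, and at -2.0, -1.85 and -1.69 in DP thymocytes. Lymphoma 1 to 4 lay at -2.19, -1.87, -1.94 and -1.71, and ZNF112 at -1.84. HSC arrays were just above the median and LSC arrays below it without overlap. The difference LSC minus HSC was -1.63 ± 0.28 (SE, limma adjusted p = 0.00736, and 0.00627 with no filter). It ranged from -1.99 to -0.88 over the other settings. The call was lost with array weights and with only the contrasted arrays (limma adjusted p = 0.342). The representing probe set 1446408_at went the other way, by 0.42 ± 0.21 with no filter (SE, limma adjusted p = 0.275), and was not called.

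**Figure D2:**
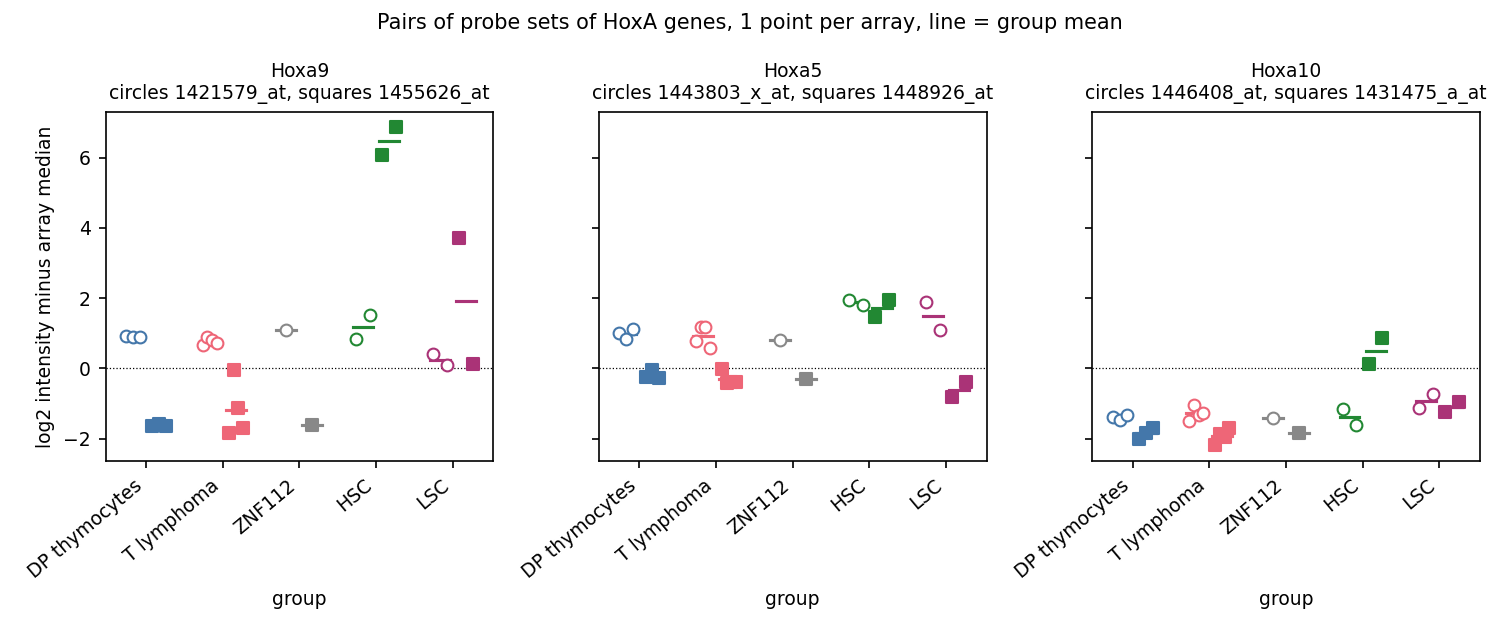
Log2 intensity minus the array median for a pair of probe sets each of Hoxa9, Hoxa5 and Hoxa10, 1 point per array (DP thymocytes n = 3, T lymphoma n = 4, ZNF112 n = 1, HSC n = 2, LSC n = 2), circles for the probe set with the highest mean and squares for the other, short lines for group means, dotted line at the array median. From HSC to LSC the squares fell in all 3 genes (by 4.60, 2.36 and 1.63 on the log2 scale for Hoxa9, Hoxa5 and Hoxa10), and among the circles the Hoxa9 ones fell by 0.96, while the Hoxa5 and Hoxa10 differences of -0.41 and 0.42 were not called.

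Other HoxA members did not pass this test. Hoxa7, which lies between Hoxa5 and Hoxa9, was at 1.66 and 1.94 in HSC and at 1.19 and 1.17 in LSC, so the groups did not overlap. Its difference was -0.65 ± 0.22 with a 95% interval of -1.14 to -0.16 (SE, limma adjusted p = 0.0914). DP thymocytes had Hoxa7 at 0.97, 1.39 and 0.89, lymphoma 1 to 4 at 0.75, 0.87, 0.68 and 0.94, and ZNF112 at 0.93, all close together. Hoxa3, a gene of thymus and pharyngeal development, was above the median on its probe set 1427433_s_at at 0.52 and 0.41 in HSC and 0.17 and 0.23 in LSC. On the other 8 arrays that probe set lay between -1.73 and -1.51. The LSC minus HSC difference of this Hoxa3 probe set was -0.29 ± 0.20 (SE, limma adjusted p = 0.402). The other Hoxa3 probe sets did not pass the filter. With no filter, the representing 1452421_at gave -0.06 and 1429398_at -0.22, neither of them called. Probe set 1431392_at went the other way, by 0.61 ± 0.17 (SE, limma adjusted p = 0.0699), and was not called.

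The clusters also yield antisense transcripts, of which Hoxa11os, Hoxb5os and Hoxd3os1 had probe sets. Hoxb5os lay at 1.80 and 1.64 in HSC, 0.17 and -0.18 in LSC, -0.83, -0.98 and -0.92 in DP thymocytes, -1.02, -0.97, -0.89 and -0.76 in lymphoma 1 to 4, and -1.0 in ZNF112. Both HSC arrays were above both LSC arrays. The Hoxb5os difference LSC minus HSC was -1.76 ± 0.20 (SE, limma adjusted p = 0.00130, and 5.37e-04 for its probe set with no filter). It ranged from -1.92 to -1.25 over the other settings. The call was lost with array weights and with only the contrasted arrays (limma adjusted p = 0.277). Hoxb5, the coding gene at this place, was below the median on all 12 arrays, from -1.33 to -0.75. Hoxa11os was below the median throughout as well.

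In HoxB, Hoxb3 was uncertain between HSC and LSC. Its probe set 1456229_at lay at 0.70 and 1.05 in HSC and at 1.41 and -0.58 in LSC, so that LSC 1 was above both HSC arrays and LSC 2 below them. The log2 difference of -0.49 ± 0.49 (SE, limma adjusted p = 0.581) turned to 0.49 without LSC 2 and became -1.48 without LSC 1, where it was called (limma adjusted p = 0.00367). On the other 8 arrays this Hoxb3 probe set was below the median, between -0.92 and -0.50. Hoxb2 lay at 0.08 and -0.04 in HSC and at 0.09 and -0.76 in LSC, against -1.31 to -1.03 on the other 8 arrays, and its difference LSC minus HSC was -0.39 ± 0.27 (SE, limma adjusted p = 0.403). Without LSC 1, Hoxb2 was called as well. Hoxb4 lay at 1.06 and 1.29 in HSC and at 1.48 and 1.02 in LSC, with a difference of 0.05 and a 95% interval of -0.45 to 0.54.

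HoxC and HoxD members were not called between HSC and LSC. Hoxc6 lay at 1.03 and 1.2 in HSC and 1.35 and 1.45 in LSC, and Hoxc9 at 0.27 and 0.47 in HSC and 0.53 and 0.78 in LSC. Their differences were 0.26 ± 0.20 and 0.25 ± 0.23 (SE, limma adjusted p = 0.443 and 0.515). Hoxd9, the HoxD counterpart of Hoxa9 by position, lay at 0.03 and 0.21 in HSC and 0.53 and 0.87 in LSC, and its difference was 0.55 ± 0.24 (SE, limma adjusted p = 0.187). A second Hoxc6 probe set, 1427362_x_at, was near the median, at 0.27 and -0.13 in HSC, 0.11 and 0.07 in LSC and from -0.20 to 0.02 on the other arrays. Its difference LSC minus HSC was -0.01 ± 0.21 (SE, limma adjusted p = 0.983), so the Hoxc6 probe sets differed in sign.

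**Figure D3:**
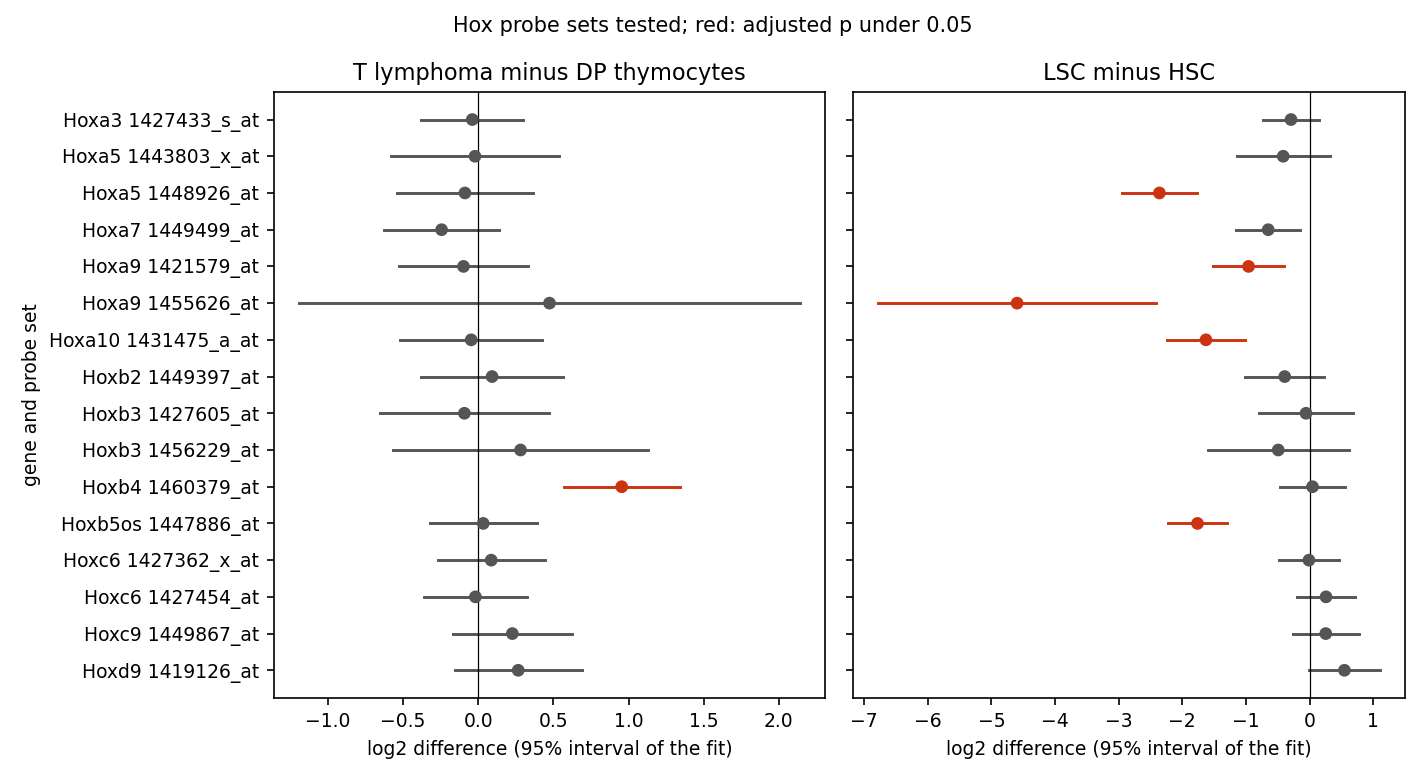
Log2 differences (points) and the 95% interval of the limma fit (lines) for the 15 Hox probe sets tested and Hoxb5os, for T lymphoma minus DP thymocytes on the left and LSC minus HSC on the right; red marks an adjusted p under 0.05. On the right Hoxa5 1448926_at, both Hoxa9 probe sets, Hoxa10 1431475_a_at and Hoxb5os are red and lower in LSC, and on the left Hoxb4 is red and higher in T lymphoma.

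Several measures differed together with the LSC and HSC groups. The 3' over 5' ratio of the beta-actin control probe sets, which rises when RNA or its amplified copies are short, stood at 13.6 and 9.82 for the LSC arrays, against 5.79 and 3.91 for HSC 1 and 2. The 12 T cell markers summed to 130.4 and 597.9 times the array median in LSC 1 and 2, against 23.4 and 13.7 in HSC 1 and 2, and 8 of them were called higher in LSC. All 12 T cell markers were above the median in both LSC arrays, against 11 and 6 in HSC 1 and 2. The summed level of 7 granulocyte markers was 719.5 and 721.4 in HSC against 262.6 and 23.9 in LSC. That of 5 erythroid markers was 200.3 and 478.5 against 57.6 and 5.98. That of 6 B cell markers was 576.3 and 584.2 against 48.2 and 201.5. The 8 stem cell markers overlapped between the groups, at 215.1 and 301.0 in HSC and 303.3 and 56.5 in LSC. The 8 macrophage markers overlapped too, at 598.2 and 100.2 in HSC and 315.2 and 73.2 in LSC. The part of these measures in the Hox differences was not tested.

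The Hox proteins bind DNA with Meis, Pbx and Pknox cofactors. Of 9 such genes listed, 8 had a probe set and 6 were tested, of which 1, Meis1, was called lower in LSC and 0 higher. Meis1 lay at 4.83 and 5.50 in HSC and at 2.72 and -0.56 in LSC, and between -2.11 and -1.14 on the other 8 arrays. As for Hoxa9, both HSC arrays were high and LSC 2 was far below LSC 1. The Meis1 difference LSC minus HSC was -4.11 ± 0.82 (SE, limma adjusted p = 0.0144). It was -2.49 without LSC 2 and -5.74 without LSC 1, both called, and without HSC 2 it was not called (limma adjusted p = 0.0788). The other cofactors tested were Meis2, Meis3, Pbx2, Pbx3 and Pknox1. Meis2 lay at 5.52 in LSC 1 and at -1.44 in LSC 2, against -1.17 and -1.49 in HSC, and at 3.18 in ZNF112. The LSC minus HSC differences of Meis3, Pbx2, Pbx3 and Pknox1 were 0.42, 0.46, -0.73 and -0.73, with limma adjusted p from 0.425 to 0.519. A different Meis1 probe set, 1443260_at, gave -3.82 ± 0.58 (SE, limma adjusted p = 0.00440).

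Regulators that set the activity of the clusters were listed as well: the histone methyltransferases Kmt2a, Dot1l and Ezh2 with their partners, the Cdx factors and the demethylase Kdm6b. Of 16 listed, 13 were tested and 0 were called in any of the 5 comparisons. These 13 were above the median on all 12 arrays, among them Kmt2a at 3.41 and 2.99 in HSC and 1.05 and 4.36 in LSC, Ezh2 at 4.87 and 6.04 against 5.08 and 5.27, and Bmi1 at 5.27 and 5.66 against 6.14 and 3.22. Cdx1, Cdx2 and Cdx4 were below it throughout. The median difference of the 13 regulators LSC minus HSC was -0.44, beside -0.06 over all genes tested. Other probe sets of Kdm6b fell in T lymphoma against DP thymocytes, 1442643_at by 1.99 ± 0.32 (SE, limma adjusted p = 0.00598) and 1447612_x_at by 2.22 ± 0.43 (SE, limma adjusted p = 0.0155). Of 9 genes that lie beside the clusters, 5 were tested and 1, Skap1 next to HoxB, was called higher in LSC. The other 4, Skap2, Hibadh, Mtx2 and Lnpk, had differences of -1.11, -0.52, -1.04 and 0.75. Skap1, a T cell adaptor gene, lay at -0.71 and -1.42 in HSC and 3.35 and 5.37 in LSC, a difference of 5.40 ± 0.55 (SE, limma adjusted p = 6.73e-04).

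The promoters of Hoxa5 and Hoxa9, called between HSC and LSC, and of Hoxb4, called between T lymphoma and DP thymocytes, are shown so that their base composition can be compared, with the 250 bases before the start of transcription taken from RefSeq (GRCm38.p6), 5′ to 3′ on the strand of the gene and with a motif match in capitals. Promoters were found for 19 of the 33 members. Hoxa5 lies at chr6:52204588-52204837 on the minus strand, Hoxa9 at chr6:52227371-52227620 on the minus strand and Hoxb4 at chr11:96318017-96318266 on the plus strand.
Hoxa5: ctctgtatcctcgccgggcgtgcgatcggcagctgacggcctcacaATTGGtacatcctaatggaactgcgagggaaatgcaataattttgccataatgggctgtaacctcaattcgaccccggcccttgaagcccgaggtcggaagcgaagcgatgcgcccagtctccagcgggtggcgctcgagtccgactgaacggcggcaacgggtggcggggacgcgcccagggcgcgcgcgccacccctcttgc
Hoxa9: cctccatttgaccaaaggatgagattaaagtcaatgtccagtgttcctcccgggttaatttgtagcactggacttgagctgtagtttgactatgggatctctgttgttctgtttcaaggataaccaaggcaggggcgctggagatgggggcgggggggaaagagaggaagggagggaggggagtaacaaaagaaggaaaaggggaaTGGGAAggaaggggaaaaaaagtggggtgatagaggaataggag
Hoxb4: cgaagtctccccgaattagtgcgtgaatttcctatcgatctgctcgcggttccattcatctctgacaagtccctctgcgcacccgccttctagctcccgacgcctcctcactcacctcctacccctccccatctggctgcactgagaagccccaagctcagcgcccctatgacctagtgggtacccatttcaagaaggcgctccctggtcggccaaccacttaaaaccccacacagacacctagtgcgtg
The Hoxa5 sequence is 63.6% G and C with a CpG observed over expected ratio of 1.11, the Hoxa9 sequence 49.6% with 0.266, and the Hoxb4 sequence 58.0% with 0.760. The medians were 58.6% and 0.721 over 24 promoters of 22 Hox genes, and 52.4% and 0.374 over all 32851 promoters. Some of the 22 genes are not among the members described here. The Hoxa9 window has a lower CpG ratio than either median.

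These windows were searched on both strands for 8 motifs. The capitals in Hoxa5 mark a CCAAT box (CCAAT, read on the minus strand, first base 204 before the start), and those in Hoxa9 mark the RBPJ core of Notch signalling (TGGGAA, first base 44 before the start). The Hoxb4 window held none of the 8, and no match overlapped another. CCAAT was found in 14 of 24 Hox promoters (58.3%) against 33.8% of all 32851, and TGGGAA in 4 of 24 (16.7%) against 21.6%. The other motifs were the Pbx-Hox composite TGATTNAT (2 of 24 Hox promoters, 2.82% of all), the Meis site TGACAG (2 and 15.9%), the homeodomain core TAATTA (2 and 4.84%), the STAT site TTCNNNGAA (1 and 7.02%), the TATA box TATAAA (4 and 12.4%) and the E-box CACGTG (4 and 6.02%). A match is only a run of letters, and binding was not measured.

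T lymphoma was compared with DP thymocytes, the normal cells of like surface phenotype. Hoxb4 rose in T lymphoma, and no other member was called. Of the 9 members tested, 1 was called higher and 0 lower, against 3.40% of 12496 genes called higher and 3.11% lower. Hoxb4 (probe set 1460379_at) lay at 0.03, 0.40 and 0.27 in DP thymocytes, at 1.09, 1.19, 1.04 and 1.31 in lymphoma 1 to 4 and at 1.64 in ZNF112. All lymphoma arrays, sorted or not, were above all DP arrays. The difference was 0.95 ± 0.17 (SE, limma adjusted p = 0.00895), a 1.94-fold higher mean. It was not called without DP 1 (0.86, limma adjusted p = 0.0634) or with the sorted array as the only lymphoma (1.03, limma adjusted p = 0.198). The other Hoxb4 probe set, 1451761_at, was below the median on every array, between -1.56 and -0.91, and was not tested. In the fit of single probe sets, 1 of 15 Hox probe sets (Hoxb4 1460379_at) was called, against 6.20% of all 22482.

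The other tested members lay close together in DP thymocytes and T lymphoma. Hoxa5 (1443803_x_at) lay at 1.00, 0.84 and 1.11 in DP thymocytes and at 0.78, 1.19, 1.17 and 0.57 in lymphoma 1 to 4, with ZNF112 at 0.81, and its difference was -0.02 with a 95% interval of -0.58 to 0.53. Hoxd9 lay at 0.56, 0.74 and 0.73 in DP thymocytes, at 0.90, 0.81, 1.19 and 0.74 in lymphoma and at 0.81 in ZNF112, a difference of 0.27 with a 95% interval of -0.15 to 0.68. Hoxa7 and Hoxa9 (1421579_at) had intervals of -0.62 to 0.13 and -0.52 to 0.32. All 4 intervals include 0.

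The HoxC members were near the array median in these cells. Hoxc6 lay at 0.20, 0.14 and 0.31 in DP thymocytes, at the median in lymphoma 1, at 0.08, 0.27 and 0.32 in lymphoma 2 to 4 and at 0.26 in ZNF112, and its difference was -0.02 ± 0.15 (SE, limma adjusted p = 0.964). Hoxc9 lay at -0.16, -0.09 and -0.14 in DP thymocytes, at 0.00, 0.25, 0.19 and -0.17 in lymphoma and at 0.20 in ZNF112, a difference of 0.23 ± 0.17 (SE, limma adjusted p = 0.486). Lymphoma and DP arrays overlapped for both genes.

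Among the cofactors, Pbx2 fell in T lymphoma. Pbx2 lay at 2.87, 2.82 and 3.00 in DP thymocytes, at 1.45, 1.90, 0.42 and 1.81 in lymphoma 1 to 4 and at 1.5 in ZNF112, so that the groups did not overlap. The difference was -1.47 ± 0.31 (SE, limma adjusted p = 0.0214), while probe sets 1418894_s_at and 1449261_at of Pbx2 gave -0.94 and -0.87 and were not called. The other 5 cofactors tested were not called in this comparison on their representing probe sets. A second Pbx3 probe set, 1447640_s_at, lay at -1.54, -1.28 and -1.57 in DP thymocytes. In lymphoma 1 to 4 it lay at 1.10, 3.57, 0.24 and 3.47, without overlap. The representing Pbx3 probe set overlapped, at 0.37, 0.79 and 0.92 in DP thymocytes and 0.95, 2.44, 0.80 and 2.44 in lymphoma.

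Whether the change between LSC and HSC differed from that between T lymphoma and DP thymocytes was tested as a difference of the 2 log2 differences. Of the 9 members tested, 0 were called by limma, beside 9.28% of all genes called. An unadjusted limma p under 0.05 was found for 2 of the 9 members, and for 3249 of all 12496 genes tested. With every probe set and no filter, 3 of 48 Hox probe sets were called more negative in the stem cell comparison, against 2.89% of 34945, and 0 more positive, against 2.68%. These were Hoxa5 1448926_at (-2.27 ± 0.33, SE, limma adjusted p = 0.00545 with the filter and 0.00438 without), Hoxa10 1431475_a_at (-1.58 ± 0.35, limma adjusted p = 0.0269 and 0.0231) and Hoxb4 1460379_at. Hoxa9 1455626_at (-5.07 ± 1.22) was called with the filter (limma adjusted p = 0.0368) and not without it (limma adjusted p = 0.0534). In T lymphoma minus DP thymocytes the same probe sets of Hoxa5, Hoxa10 and Hoxa9 gave -0.09, -0.05 and 0.47 and were not called. They lay below the array median on all DP and lymphoma arrays, so that this difference is close to the LSC minus HSC difference alone. Hoxb5os gave -1.79 ± 0.25 at the gene level (SE, limma adjusted p = 0.00413). Hoxb4 gave -0.91 ± 0.28 (SE, limma adjusted p = 0.0720) and was not called, but at the probe set level it was called without LSC 1 (-1.13, limma adjusted p = 0.0239) or with no filter (limma adjusted p = 0.0484). The Hoxa9 call was lost when any 1 of lymphoma 1 to 3, of the 3 DP arrays or of the HSC arrays was left out, where the limma adjusted p was 0.0516 to 0.106. The Hoxa10 call was lost without any 1 of the DP arrays, without lymphoma 2 or without HSC 2, where it was 0.0575 to 0.0822.

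The ZNF112 array was compared with T lymphoma, with the lone array assumed to vary like the other groups. Of the 9 members tested, 0 were called by limma, beside 1.18% of all genes called. Hoxb4 was higher in ZNF112, at 1.64, than on any lymphoma array, a difference of 0.47 ± 0.25 (SE, limma adjusted p = 0.499). Hoxa9 1421579_at was also above all 4 lymphoma arrays, at 1.10, a difference of 0.31 ± 0.27 (SE, limma adjusted p = 0.739).

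Sorting was examined by setting lymphoma 4 against the unsorted lymphoma 1 to 3. Of the 9 members tested, 0 were called by limma, beside 0.688% of all genes called. Hoxd8 and the antisense transcript Hoxd3os1 of the HoxD cluster were below the median on every array and did not pass the filter. They are described because, among the DP thymocyte, lymphoma and ZNF112 arrays, Hoxd8 and Hoxd3os1 1460056_at were highest in the unsorted tumours. They were chosen after their values were seen, and the HSC and LSC arrays were not part of this comparison. Hoxd8 probe set 1433638_s_at lay at -1.07, -0.95 and -0.54 in lymphoma 1 to 3 and at -1.78 in lymphoma 4, beside -1.81, -1.75 and -1.97 in DP thymocytes and -1.71 in ZNF112. Hoxd8 probe set 1431099_at lay at -0.44, -0.80 and -0.16 in the unsorted tumours and -1.14 in the sorted one, beside -1.12, -1.32 and -1.44 in DP thymocytes and -1.11 in ZNF112. Hoxd3os1 1460056_at lay at -0.79, -1.23 and -0.93 there and between -2.05 and -1.69 on the others, while its second probe set 1430263_at lay between -2.08 and -1.82 on all 8 arrays and did not separate. The unsorted tumours exceeded the other 5 arrays of this set in 2 of 48 Hox probe sets (4.17%), both of Hoxd8. The share was 5.23% of all 34945 probe sets and 3.51% of the 13258 below the median on these 8 arrays. The share among Hox probe sets lay between these backgrounds.

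With no filter on low values, the differences of these HoxD probe sets between T lymphoma and DP thymocytes were 0.69, 0.78 and 0.72 for Hoxd8 1431099_at, Hoxd8 1433638_s_at and Hoxd3os1 1460056_at, with limma adjusted p of 0.177, 0.175 and 0.139. Between the sorted and the unsorted lymphomas they were -0.78, -1.03 and -0.81, with limma adjusted p of 0.422, 0.213 and 0.290, so that none was called. The summed level of 11 stroma and endothelium markers over the array median was 333.7, 174.0 and 181.3 in lymphoma 1 to 3 and 11.2 in lymphoma 4. It was 10.8 to 11.9 in DP thymocytes and 12.03 in ZNF112. In lymphoma 1 to 3, 10 of these 11 markers were above the median, against 4 or 5 on the other arrays of this set, and 8 macrophage markers summed to 228.3 to 460.2 against 34.4 in lymphoma 4. The part of stromal cells in the Hoxd8 values was not tested.

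**Figure D4:**
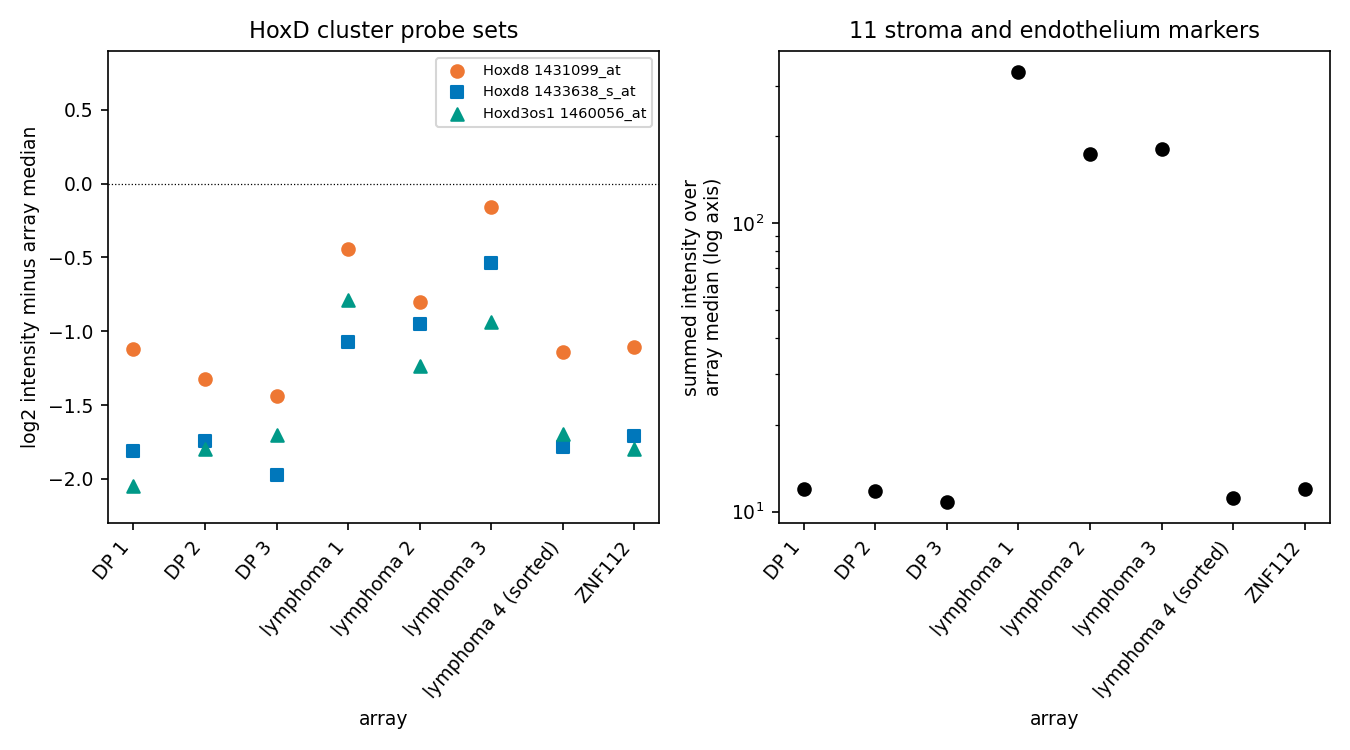
Left, log2 intensity minus the array median of Hoxd8 (a pair of probe sets) and Hoxd3os1 (1460056_at) on the 8 arrays of DP thymocytes, T lymphoma and ZNF112, 1 point per array, with the array median as a dotted line; right, the summed intensity of 11 stroma and endothelium markers on the same arrays on a log axis. Lymphoma 1 to 3, which were unsorted, are the highest 3 arrays in both panels, and lymphoma 4 lies among the DP thymocyte arrays or close to them.

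The rule of 1 probe set per gene bears on which members count as present. When any probe set of a member could meet the rule, 10 members were above the median on every array in HSC and 8 in LSC, in place of 7 each, and the counts of 6, 5 and 7 in DP thymocytes, T lymphoma and ZNF112 did not move. The added members were Hoxa3, Hoxa10 and Hoxb3 in HSC and Hoxa3 in LSC. In the other direction, Hoxa5, Hoxa9 and Hoxb4 each had a probe set below the median on every DP, lymphoma and ZNF112 array.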

How the data were processed

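RNA amplified in 2 cycles was hybridised to Affymetrix mouse arrays, 1 per sample, per the labels. The authors deposited probe set intensity values on the linear scale, made with RMA per the submitters' processing notes, which name no version. Log2 was taken here. The table held 45101 probe sets, 64 of them controls; 34945 had 1 gene symbol, 932 several and 9160 none, and only the first were used. Features above their array median in at least 2 arrays were tested (12496 genes, 22482 probe sets). One model with a mean per group was fitted over the 12 arrays (limma 3.58.1, R 4.3.3, lmFit and eBayes, two-sided). The script was tested on simulated data. Arrays have no read depth, and their number limits the precision. The labels call replicates biological. The p-values rest on a spread pooled over the 12 arrays, so those for LSC minus HSC draw also on the other groups. The DP arrays correlated with each other at 0.9946 to 0.996, and LSC 1 with LSC 2 at 0.784. With only the HSC and LSC arrays in the fit, 4 genes were called between LSC and HSC, in place of 1330.

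The members and lists were chosen with earlier results of these data known. Described in full were members called in a comparison, members above the median in a group, and members whose probe sets differed between LSC and HSC; cofactors, regulators, neighbours and antisense transcripts were named from lists. Testing each probe set, taking the probe set with the highest single value, counting any probe set above the median, and the fits of probe sets without a filter were chosen after seeing the data. Other alternatives concerned the filter, probe set choice, scaling, log offset, variance model, samples and replicate numbers.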

Additional observations from a re-analysis of the deposited data

Results flagged for a closer look

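The change between LSC and HSC differed from that between T lymphoma and DP thymocytes in 4 Hox cluster transcripts when each probe set was tested with the filter on low values (limma adjusted p under 0.05, the difference of the log2 differences). That fit tested 15 Hox probe sets and Hoxb5os, and called 1828 of all 22482 probe sets in either direction. Hoxa5 and Hoxa10 entered it only through their HSC arrays, and Hoxb5os only through HSC and LSC 1. All 4 probe sets lay below the array median on every DP and lymphoma array. The difference of the log2 differences is therefore close to the LSC minus HSC difference alone. With no filter, 2.89% of all probe sets were called in this direction. Hoxa5, Hoxa10 and Hoxb5os then kept their calls, Hoxb4 was called too and Hoxa9 had a limma adjusted p of 0.0534. Hoxa9 1455626_at had -5.07, Hoxa5 1448926_at -2.27, Hoxb5os -1.79 and Hoxa10 1431475_a_at -1.58.

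A lymphoma array lay far from the other 3 in 3 of 44 Hox probe sets examined, by Dixon's ratio at the 95% level, which chance exceeds in about 1 in 20. Hoxa5 1448926_at was -0.0212 in lymphoma 1 against -0.416 to -0.386 in the others. Hoxb5 was -1.31 in lymphoma 3 against -1.14 to -1.12. The Hoxa11os probe set 1457646_at was -2.26 in lymphoma 3 against -2.10 to -2.06.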

How the results depend on the processing

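The call of Hoxb4 in T lymphoma against DP thymocytes (1 Hox gene called) became 0 with the sorted array as the only lymphoma, and 0 to 1 when arrays were left out in turn. Between LSC and HSC, 1 Hox gene was called. This became 0 with array weights, with 32 added before log2, with only the contrasted arrays, and with the replicate number as a replicate block. It became 2 (Hoxa5, Hoxa9) with the mean of all probe sets of a gene or without _x_at and _s_at probe sets. It became 3 (Hoxa5, Hoxa9, Hoxa10) with every probe set on its own or with the probe set of the highest single value, and 0 to 2 when arrays were left out. For the difference of these comparisons, 0 became 3 under these last settings, 2 with the mean of probe sets, 1 without _x_at and _s_at probe sets, 1 with no filter (Hoxb4), and 0 to 2 when arrays were left out. The cause was not tested. ZNF112 and the sorted lymphoma gave 0 in all settings run.

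Members above the median numbered 3 in place of 6 in DP thymocytes with the array mean, with the median over 1 probe set per gene, and with the mean of probe sets. In T lymphoma these gave 2, 1 and 3 in place of 5, and the highest single value gave 3. The median over 1 probe set per gene gave 2 in place of 7 in HSC and 4 in LSC, and the array mean gave 4 in LSC.

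The 16 named Hox differences were recomputed under each alternative that gave a value. In 226 of these recomputations the direction and side of the threshold were kept, in 46 the call was lost, in 3 one was gained and in 1 the sign reversed (Hoxb3 1456229_at, LSC minus HSC, from -1.48 without LSC 1 to 0.49 without LSC 2). Hoxa9 1455626_at, LSC minus HSC, ranged from -6.39 to -2.81 with limma adjusted p of 6.86e-04 to 0.338. Hoxa5 1448926_at, Hoxa10 1431475_a_at and Hoxb5os lost their LSC minus HSC call with array weights (limma adjusted p = 0.0620, 0.224 and 0.0991) and with only the contrasted arrays (0.242, 0.342 and 0.277).

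The deviations of same-numbered arrays correlated weakly (-0.07 to 0.10). HSC and LSC have 2 arrays each, so that replicates 1 and 2 necessarily gave the same value, 0.10. These correlations cannot show whether the replicate numbers mark a pairing or a batch. With the replicate block, Hoxb4 in T lymphoma had a limma adjusted p of 0.0484, and Hoxa9 in LSC 0.0996 (1421579_at) and 0.0598 (1455626_at).

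Over all genes, 814 were called between T lymphoma and DP thymocytes, against 4649 with array weights, 1798 with only the contrasted arrays, 1531 without the sorted array, 317 with it alone and 383 to 717 when an array was left out (383 to 392 without a DP array). Between LSC and HSC 1330 were called, against 91 with array weights, 4 with only the contrasted arrays, 2382 without LSC 1, 2734 without LSC 2 and 795 without HSC 2. For the difference of these comparisons 1160 became 282 with array weights, 264 with the sorted lymphoma alone, 446 to 490 without a DP array, 667 without lymphoma 2, 2293 without LSC 1 and 2453 without LSC 2. For ZNF112, 147 became 1927 with array weights, 5 with only the contrasted arrays, 276 without the sorted array and 63 without lymphoma 2. For the sorted lymphoma, 86 became 53 with no filter, 47 with the mean of probe sets, 976 with array weights, 250 without lymphoma 2, 41 without lymphoma 3, and 0 by limma with only the contrasted arrays (1254 at an unadjusted p under 0.05). With every probe set on its own the first 3 counts were 1393, 2213 and 1828.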
